A study of Mus musculus with 17 samples.

Results

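Monocytic cells from the spleens of mice that had carried a tumour for 6 weeks were compared with the same sorted fraction at 3 weeks. The comparison uses 6 of the 17 arrays of the series, chosen by their titles: 3 arrays at 6 weeks and 3 at 3 weeks. The mice were female BALB/c animals whose ages are not given in the sources used here. All of the mice behind these 6 arrays had received 100000 Her-2/CT26 cells under the skin (CT26 is a mouse colon carcinoma line). Spleens were pooled, CD11b+ cells were enriched on magnetic beads, and cells bright for Ly-6C and dim for Ly-6G were collected by flow sorting. The study asked what makes such cells, called monocytic myeloid-derived suppressor cells, more suppressive while the tumour grows. RNA was read on the Affymetrix Mouse Gene ST array, which probes exons along the whole transcript. Nothing in the labels tells whether replicates stem from different pools, so each p-value measures the spread between arrays, which may be technical. Arrays of monocytic cells from naive mice (3) and of granulocytic cells, dim for Ly-6C and bright for Ly-6G, at 3 weeks (2) and 6 weeks (2) served as reference. The rest of the 17 arrays, granulocytic cells from naive mice, were in the fit and so entered its estimate of the spread.

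Myeloid-derived suppressor cells are myeloid cells that expand in tumour-bearing hosts and restrain T cells. Monocytes and neutrophils share a dividing progenitor, which makes the proteins of the azurophil granules early, and the neutrophil line makes those of the specific granules later. Monocytes high in Ly-6C are short-lived cells that can mature into patrolling monocytes, which carry much Cx3cr1 and little Ly-6C, or into cells that present antigen on MHC class II. Each array reads a mixture of cells, so fewer cells of a type and less RNA per cell cannot be told apart.

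The arrays carried the genes that the sort implies. Ccr2, the chemokine receptor that lets monocytes leave the marrow, averaged 12.3 ± 0.09 log2 intensity (SD, n = 3) at 3 weeks and 12.2 ± 0.09 at 6 weeks. Itgam, which encodes CD11b, was at 11.4 ± 0.1 and 11.4 ± 0.18, and Csf1r, the receptor for macrophage colony-stimulating factor, at 12.0 ± 0.05 and 11.4 ± 0.16. Ly6g, the marker the sort used to leave out granulocytic cells, was at 6.17, 5.99 and 5.7 on the 3-week arrays and at 6.56, 8.95 and 6.43 on the 6-week arrays. The second 6-week array therefore stood apart for a neutrophil marker, and it also read highest for the neutrophil chemokine receptor Cxcr2 (7.25, against 5.66 and 6.09 on the other 6-week arrays). The first 3-week array stood apart in another way: on the leading principal component of the 9 monocytic arrays, which held 70.33% of the variance, it lay at -26.8, within the range of the naive arrays (-42.5 to -20.2), while the other 3-week arrays lay at 5.47 and 12.8 and the 6-week arrays at 11.5, 43.5 and 53.0. Median intensity ran from 95.3 to 111 over the 6 arrays. Counts below are also given without these or other single arrays where that moves them by more than 1.5 times.

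Of 19938 genes, 873 (4.38%) were higher at 6 weeks and 624 (3.13%) lower at an adjusted p below 0.05 (limma, Benjamini-Hochberg adjustment over all genes, all 17 arrays in the fit), and 429 (2.15%) of these changed at least 2-fold. "Rose" and "fell" mean this below, a change is the 6-week minus the 3-week mean on the log2 scale with its standard error, and the median change of all genes was -0.029. Without the first 3-week array 698 genes (3.5%) rose and 889 (4.46%) fell, so the balance of direction turned. Without the second 6-week array the counts were 597 (2.99%) and 428 (2.15%), and without both arrays 522 (2.62%) and 688 (3.45%). Without the first 6-week array they were 1727 (8.66%) and 1076 (5.4%), without the third 579 (2.9%) and 421 (2.11%), without the second 3-week array 729 (3.66%) and 429 (2.15%), and without the third 877 (4.4%) and 434 (2.18%). With the replicate number as a block, 1553 genes (7.79%) rose and 981 (4.92%) fell, among them all 1497 genes of the unblocked comparison. With the 9 monocytic arrays alone in the fit 2.45% of genes rose and 1.95% fell, with the 6 arrays alone 1.22% and 0.928%, after centring each array on its median 3.4% and 2.57%, and with low values raised to a floor described below 2.85% and 2.35%.

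Genes of cell division rose together. All 33 measured genes of the mitosis list rose, by a median of 2.30 on the log2 scale, and in each of them the lowest 6-week array lay above the highest 3-week array, against 4.38% of all genes that rose and 6.47% whose 6-week arrays all lay higher. Kif11, the kinesin that pushes spindle poles apart, was at 6.46, 7.03 and 7.16 on the 3-week arrays and at 9.51, 10.2 and 10.5 on the 6-week arrays. Its 2 groups lay more than 2 log2 units apart, and it rose 9.03-fold (change 3.18, SE 0.28, adjusted p = 1.22e-06). Nuf2, a kinetochore protein, went from 6.45, 6.97 and 6.97 to 9.19, 9.9 and 10.3 (change 3.00, SE 0.26), and the spindle assembly factor Tpx2 from 6.59, 7.04 and 7.09 to 9.31, 9.93 and 10.3 (change 2.93, SE 0.21). Bub1, a kinase of the spindle checkpoint, rose by 2.88 ± 0.22 (SE), and Cip2a, an inhibitor of the phosphatase PP2A, rose 9.04-fold. Top2a, which untangles DNA before segregation, rose by 2.87, a call that was lost when the dimmest feature of each gene was taken in place of the brightest.

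DNA replication followed the same course at a smaller size. Of 34 measured genes 33 rose, with a median of 1.35; Gins4, a subunit of the replicative helicase, was the exception and is named after its value was seen (change 0.48, adjusted p = 0.175). Rrm2, the small subunit of ribonucleotide reductase, which makes deoxynucleotides, was at 7.43, 7.87 and 7.81 at 3 weeks and at 9.82, 10.6 and 10.99 at 6 weeks, a 6.74-fold rise (adjusted p = 4.47e-07). Both groups were tight compared with the gap between them. Helicase subunits Mcm6 (2.39) and Mcm7 (2.16), the large reductase subunit Rrm1 (2.28) and the primase Prim1 (2.23) rose in step. Among cyclins, cyclin-dependent kinase inhibitors and E2F factors 12 of 22 rose and none fell, led by cyclin E2 (Ccne2, 1.95), the repressor E2f8 (1.92), the inhibitor Cdkn2c (1.67), cyclin E1 (Ccne1, 1.46) and the kinase Cdk6 (1.31). The call of Ccne2 was lost with low values raised to the floor (adjusted p = 0.100). The D-type cyclins were not among those that rose: Ccnd1, Ccnd2 and Ccnd3, named after their values were seen, changed by -0.10, -0.21 and 0.12. Histone genes that are made in S phase rose too, 9 of 12, with H2ac4 at 5.38, 6.04 and 6.23 and then 8.36, 8.97 and 9.32 (change 3.00) and the linker histone H1f1 up by 2.33; replication-dependent histone genes are near copies of each other, so their single values are uncertain. The counts of these lists fell by at most 1 when any single array was left out. With the 6 arrays alone in the fit, 32 mitosis, 18 replication and 4 cyclin genes passed.

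The promoters of the mitosis genes are shown because the whole list moved together. Windows of 250 bases before and 50 after each RefSeq start (GRCm38.p6) were searched on both strands. The CCAAT box, with the letters CCAAT, lay in 22 of 29 promoters of 28 matched genes (75.9%, against 37.4% of all 32851 promoters). The CHR element, with the letters TTTGAA, a site bound by repressor and activator complexes of the cell cycle, lay in 23 of 29 (79.3%, against 17.9%), and both motifs in 20 of 29 (69.0%, against 6.95%). In the 33 promoters of the replication list the CCAAT box lay in 19 (57.6%), the CHR element in 3 (9.09%) and both in 2 (6.06%), and an E2F site, with the letters TTCCCGC or TTGGCGC, in 17 (51.5%, against 6.81% of all promoters and 10.3% of the mitosis promoters). The CCAAT box alone was not particular to the mitosis list. It lay in 16 of 19 promoters of the cholesterol synthesis list (84.2%), where 2 of 19 genes rose. It also lay in 9 of 12 of the MHC class II list, where 7 of 15 genes fell and none rose. The histone list, where 9 of 12 genes rose, had it in 11 of 11 promoters. In the list of the unfolded protein and amino acid response, where 6 of 26 genes rose and 1 fell, 19 of 25 promoters had it (76.0%). The other lists had lower shares. Such matches describe the letters in these windows only. The stretches below, from mitosis genes with both motifs close together before the start and clear of any annotated gene, were chosen after the values were seen. Capitals mark the CCAAT box and the CHR element on either strand.
Kif11, chr19:37376282-37376381, plus strand: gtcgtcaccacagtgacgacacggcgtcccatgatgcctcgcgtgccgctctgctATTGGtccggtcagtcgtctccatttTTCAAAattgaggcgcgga
Mki67, chr7:135716470-135716569, minus strand: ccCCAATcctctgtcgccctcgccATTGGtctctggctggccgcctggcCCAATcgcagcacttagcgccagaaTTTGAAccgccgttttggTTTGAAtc
Cdc20, chr4:118437344-118437443, minus strand: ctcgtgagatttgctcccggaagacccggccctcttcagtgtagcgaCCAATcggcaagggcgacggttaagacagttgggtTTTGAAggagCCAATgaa
Mki67, the marker of dividing cells, rose by 2.60 and Cdc20, the activator of the anaphase-promoting complex, by 1.41; in Cdc20 the 2 groups were 7.39 to 7.68 and 8.48 to 9.32.

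**Figure D1:**
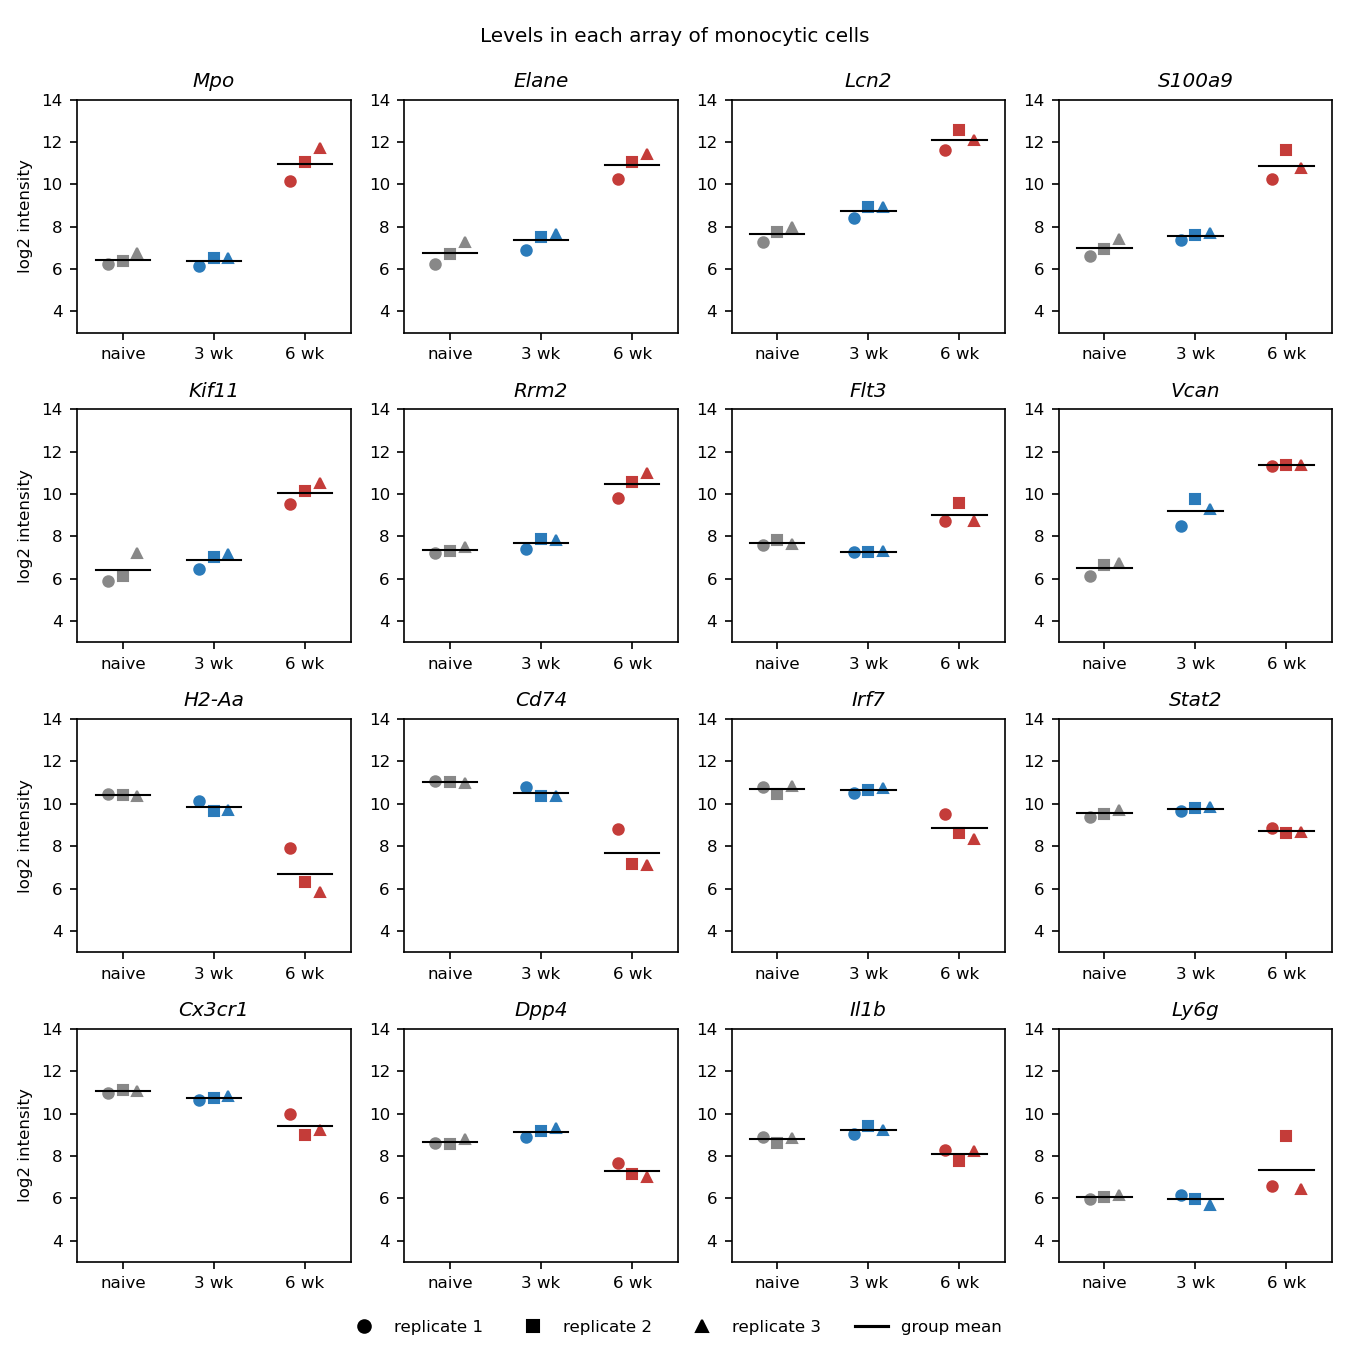
Log2 intensity of 16 genes (a panel each, y axis) in monocytic cells of naive mice and of mice 3 and 6 weeks after tumour injection (x axis, 3 arrays a group); the marker shape is the replicate number and the line the group mean. Mpo, Elane, Kif11 and Rrm2 sit far higher on all 6-week arrays, H2-Aa, Cd74, Irf7, Stat2 and Cx3cr1 lower, and Ly6g is raised mainly on the second 6-week array (8.95).

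Of 12 measured genes of the azurophil granule list 6 rose, and Mpo rose further than any other gene ranked (the ranking is described at the end). Mpo, myeloperoxidase, was at 6.16, 6.51 and 6.52 at 3 weeks and at 10.2, 11.1 and 11.7 at 6 weeks. The 3-week values were below 6.77, the 95th percentile of 1190 olfactory and vomeronasal receptor genes, which serves as a background level here (the receptor level), and all 6-week arrays were well above it. It rose 23.9-fold (change 4.58, SE 0.27, adjusted p = 3.95e-08), or by 4.20 with every value below that level raised to it. The granule proteases followed: cathepsin G (Ctsg) went from 6.45, 6.78 and 6.78 to 9.75, 10.7 and 11.4 (change 3.95), neutrophil elastase (Elane) from 6.88, 7.51 and 7.66 to 10.2, 11.1 and 11.4 (change 3.57) and proteinase 3 (Prtn3) from 7.62, 8.5 and 8.5 to 10.2, 11.1 and 11.5 (change 2.72). In all of them the 2 groups were apart by more than 1 log2 unit. Ms4a3, a membrane protein of granulocyte-monocyte progenitors, rose 11.4-fold, and the last of the 6 was Cst7 (1.46, named after its value was seen). None of the 12 fell, the median change was 0.84, against 2.30 for the mitosis list, and the same count of 6 was found when any array was left out.

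Later neutrophil granule proteins rose as well, with more spread between the 6-week arrays. In the list of specific and gelatinase granule proteins 11 of 22 rose and none fell (median 0.78), and 10 rose without the second 6-week array (median 0.53). Ngp, a neutrophil granule protein of the cathelicidin family, was at 7.57, 7.49 and 7.11 and then at 11.1, 12.7 and 10.6 (change 4.05, SE 0.44, adjusted p = 1.06e-05). Lcn2, lipocalin that withholds iron from bacteria, was at 8.39, 8.91 and 8.95 and then at 11.6, 12.6 and 12.1 (change 3.35). Lactoferrin (Ltf) read 7.27, 6.97 and 6.49 at 3 weeks and 9.05, 11.03 and 8.72 at 6 weeks, so the array with much Ly6g was its highest by about 2 log2 units. Its change was 2.70, and 1.98 without that array. Chil3, a chitinase-like protein of monocytes and macrophages as well as neutrophils, rose by 2.83 to nearly equal levels on all 6-week arrays (12.6, 12.7 and 12.3), and the secreted glycoprotein Lrg1 rose by 1.98. C/EBP sites, with the letters TTGCNNAA or TTNCGCAA, lay in 9 of 18 promoters of this list (50.0%, against 10.8% of all promoters) and in 2 of 12 of the azurophil list (16.7%).

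Other genes shared with neutrophils moved in both directions. S100a9, which with S100a8 forms calprotectin, went from 7.35, 7.59 and 7.71 to 10.2, 11.6 and 10.8 (9.94-fold, adjusted p = 4.47e-07), and S100a8 from 8.16, 8.94 and 8.94 to 10.99, 12.2 and 11.6 (7.57-fold). All 6-week arrays lay more than 2 log2 units above the 3-week arrays for both. Il1r2, the decoy receptor that binds interleukin-1 without signalling, rose by 3.36 from 6.16, 6.44 and 6.33 to 8.79, 10.4 and 9.83. Trem1, an activating receptor of myeloid cells, rose by 1.44 and the interleukin-36 gene Il1f9 by 1.66. The call of Il1f9 was lost with values raised to the receptor level (adjusted p = 0.144). Csf3r, the receptor for granulocyte colony-stimulating factor, instead fell by 0.73, from 10.4, 10.7 and 10.7 to 10.1, 9.76 and 9.76. Over the mature neutrophil list 3 of 16 measured genes rose, 2 fell and the median change was 0.45, which became 0.10 without the second 6-week array; without the first 6-week array 7 rose, and without any other single array 1 fell. Summed intensity of that list was 7398.3 to 8679.2 at 3 weeks and 8352.1, 10883 and 7598.8 at 6 weeks. Ly6g itself did not pass (change 1.36, adjusted p = 0.0824, and 0.0159 with the replicate block). The part of mature neutrophils in the rise of the granule genes was not tested. Without the array that read highest for Ly6g, Mpo, Ctsg, Elane, Lcn2 and S100a9 rose by 4.54, 3.90, 3.49, 3.11 and 2.94.

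Genes of early progenitors gave a mixed picture. Flt3, a growth factor receptor of early progenitors and dendritic cell precursors, was at 7.25, 7.28 and 7.29 and then at 8.71, 9.6 and 8.74 (change 1.74, SE 0.18, adjusted p = 4.19e-06), so the 3-week arrays were almost equal and all 6-week arrays higher. Myb, a transcription factor of dividing progenitors, rose by 1.57 and Cd93, a surface glycoprotein of progenitors and monocytes, by 0.74. These were the 3 that rose of 18 measured in the list, none fell (2 without the first 6-week array), and its median was 0.11; the list's summed intensity was 2594.9 to 2799.8 at 3 weeks and 3578.7 to 4732.4 at 6 weeks. Kit and Cd34, named after their values were seen, changed by 0.10 and 0.13. By group mean 7 of the 18 genes lay above the receptor level at each time. Among transcription factors of the myeloid lines, the growth regulator Myc rose by 1.17 (6.84, 6.53 and 6.74, then 7.35, 8.2 and 8.09) and Id1, an inhibitor of differentiation factors, by 0.82. Irf4, a factor of dendritic cells and lymphocytes, fell by 0.89 and Nr4a1, which patrolling monocytes need, by 0.81. Spi1, Cebpa and Cebpb, master factors of myeloid cells, changed by -0.01, 0.18 and -0.05, and the granulocytic factors Cebpe and Gfi1 by 0.35 (adjusted p = 0.133) and 0.28 (0.218). Irf8, which favours monocytes over neutrophils, was at 9.6, 9.84 and 9.96 and then at 10.02, 10.3 and 10.6 (change 0.52, adjusted p = 0.0808, and 0.0154 with the block). The call of Nr4a1 was lost without any single array other than the first 6-week array, and that of Id1 when both doubted arrays were left out.

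Of 15 measured genes of MHC class II 7 fell and none rose, and 3 of them, H2-Ea, H2-Aa and Cd74, fell further than any other gene ranked. H2-Aa, the alpha chain of I-A, was at 10.1, 9.68 and 9.73 at 3 weeks and at 7.93, 6.3 and 5.85 at 6 weeks. The second and the third 6-week arrays were thus below the receptor level and the first was not, and every 6-week array was lower than every 3-week array; the fall was 8.87-fold (change -3.15, SE 0.38, adjusted p = 2.52e-05). With values raised to the receptor level the change was -2.68. H2-Ea changed by -3.35 (-2.84 so raised), from 10.4, 9.89 and 9.84 to 8.11, 6.32 and 5.67, and H2-Ab1, the beta chain of I-A, by -2.42, from 9.57, 9.37 and 9.38 to 7.56, 7.03 and 6.48. Cd74, the invariant chain that guides class II molecules to the endosome, read 10.8, 10.4 and 10.4 and then 8.81, 7.14 and 7.13 (change -2.84). H2-Eb1 fell by 1.36, and Ciita, the transactivator of the class II genes (named after its value was seen), by 1.04. Over the whole list the median was -0.28, smaller than in the interferon lists below, 3.13% of all genes fell, and 6 or 7 fell whichever array was left out. The genes that did not pass included the subunits of the RFX complex, Rfx5, Rfxap and Rfxank (-0.16, -0.06 and 0.04). B cells also carry class II: the summed intensity of the 18 measured B cell markers was 3649.9, 2452.9 and 2584.8 at 3 weeks and 2615.5, 2516.9 and 2215.9 at 6 weeks, with 2 of 18 falling (5 with the block or without the first 6-week array, 1 without the third 3-week array, 0 without the first 3-week, the second 6-week or the third 6-week array). Their part in the fall of class II was not tested.

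Genes that type I interferon induces fell almost as a block. Of 32 measured genes 31 fell, by a median of -1.28, and in all 32 the 6-week arrays lay below the 3-week arrays (6.8% of all genes did). The exception was Isg20 (-0.48, adjusted p = 0.0623), named after its value was seen. Irf7, the factor that amplifies interferon production, was at 10.5, 10.6 and 10.8 and then at 9.54, 8.64 and 8.35, a 3.46-fold fall (adjusted p = 2.25e-05). Oasl2, of the oligoadenylate synthetase family, went from 9.41, 9.55 and 9.41 to 8.06, 7.06 and 7.03 (change -2.07), and Usp18, which removes ISG15 and damps the interferon receptor, from 8.45, 9.01 and 8.98 to 7.64, 6.86 and 6.41 (change -1.85). Stat2, which carries the receptor's signal to the nucleus, changed by -1.06 with little spread (9.67, 9.81 and 9.85, then 8.85, 8.63 and 8.68). Rtp4 fell 4.21-fold, Ifi44l 5.59-fold and the p200 family gene Ifi205 5.88-fold. For most of these genes the first 6-week array fell least and the third most. The median over the list's genes of the difference from the naive mean was -0.65, -1.12 and -1.34 on the 6-week arrays. Without either doubted array 31 or 32 genes fell, and with the 6 arrays alone in the fit 23 did, Ifi44l not among them. Ifi205, which is not a member of the list, also lost its call with the 6 arrays alone.

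The interferon response element, with the letters GAAA, any 2 bases and GAAA again, was searched in the same way and lay in 13 of 28 promoters of 23 matched genes of this list (46.4%, against 3.44% of all promoters). It lay in 3 of 14 promoters of the MHC class I list (21.4%) and in 6 of 13 of the interferon gamma list (46.2%), so it was not particular to the type I list. The windows below, chosen after the values were seen, are of genes that fell and whose element lay before the start and clear of any annotated gene. Capitals mark the element on either strand.
Oas3, chr5:120777700-120777759, minus strand: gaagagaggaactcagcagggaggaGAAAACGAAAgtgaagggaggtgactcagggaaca
Rsad2, chr12:26456538-26456597, minus strand: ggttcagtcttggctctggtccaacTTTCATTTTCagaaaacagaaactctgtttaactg
Trim30a, chr7:104465195-104465254, minus strand: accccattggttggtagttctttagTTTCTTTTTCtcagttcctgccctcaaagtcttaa
Bst2, chr8:71537565-71537624, minus strand: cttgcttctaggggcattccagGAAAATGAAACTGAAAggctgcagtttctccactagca
Oas3 fell by 1.78, from 9.41, 9.72 and 9.73 to 8.36, 7.67 and 7.48. Rsad2, viperin, fell by 1.10, the ubiquitin ligase Trim30a by 1.02 and Bst2, tetherin, by 0.58. None of the 4 had a 6-week array as high as its lowest 3-week array.

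**Figure D2:**
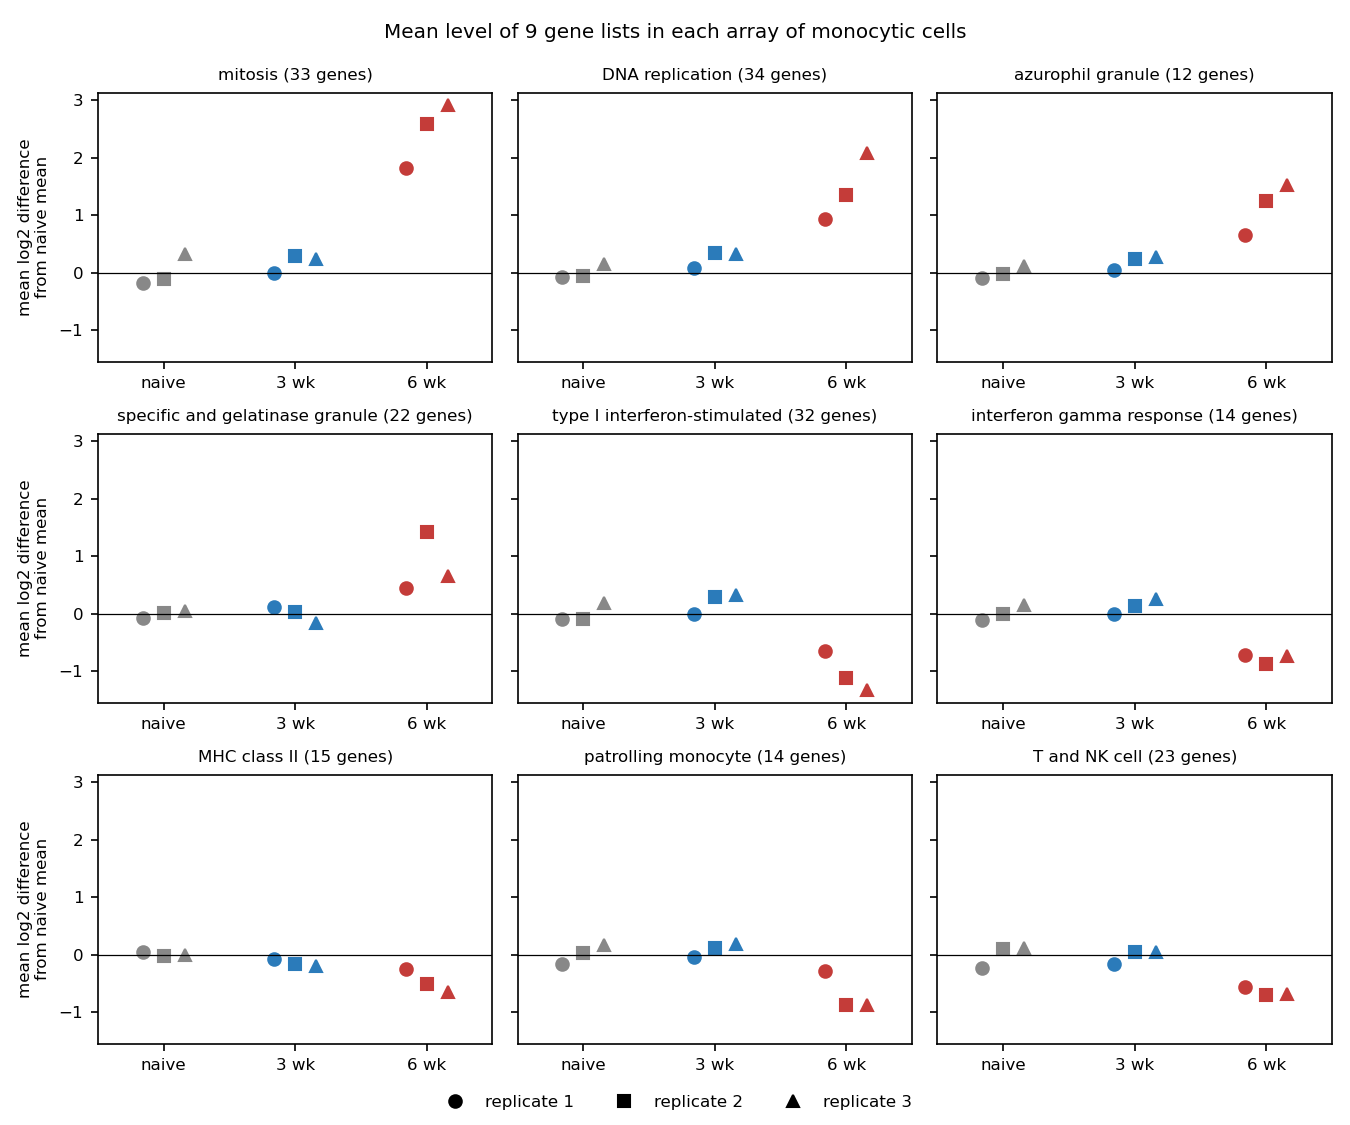
Log2 difference from the naive mean (y axis), as the median over the genes of each of 9 lists, on each monocytic array (x axis), 1 point per array. The title and the axis label call this median a mean. The mitosis list lies at 1.83, 2.59 and 2.92 on the 6-week arrays and at 0.00, 0.28 and 0.24 on the 3-week arrays, while the type I interferon list lies at -0.65, -1.12 and -1.34 on the 6-week arrays.

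Interferon gamma targets fell with them. Of 14 measured genes 9 fell and none rose (median -0.85), and 8 or 9 fell without any single array. Gbp9, a guanylate-binding GTPase that attacks the vacuoles of pathogens, went from 8.74, 8.96 and 9.06 to 7.83, 6.45 and 6.87 (change -1.87), and Irgm1, a regulator of the related immunity GTPases, from 9.69, 9.94 and 9.99 to 8.92, 8.26 and 8.08 (change -1.45). Gbp5 fell by 1.26 and Gbp4 by 1.38. Of 23 chemokine genes 3 fell and none rose: Ccl5, given below with the T and NK cell genes, and Cxcl10 and Cxcl9, which draw T cells. Cxcl10 read 7.78, 8.06 and 8.52 and then 6.93, 7.16 and 7.0 (change -1.09). Cxcl9 fell by 0.59 from levels near the receptor level, and its change was -0.05, with the call lost, once values were raised to it. Irf1, a transcription factor of the interferon regulatory family, fell by 1.18, but a second feature of the same gene did not pass, so its call depends on the probe set. Of the 16 measured genes of class I antigen processing Tapbp, which loads peptides (-0.64), and the peptide transporter Tap1 (-0.55) fell; 4 fell without the first 3-week array.

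**Figure D3:**
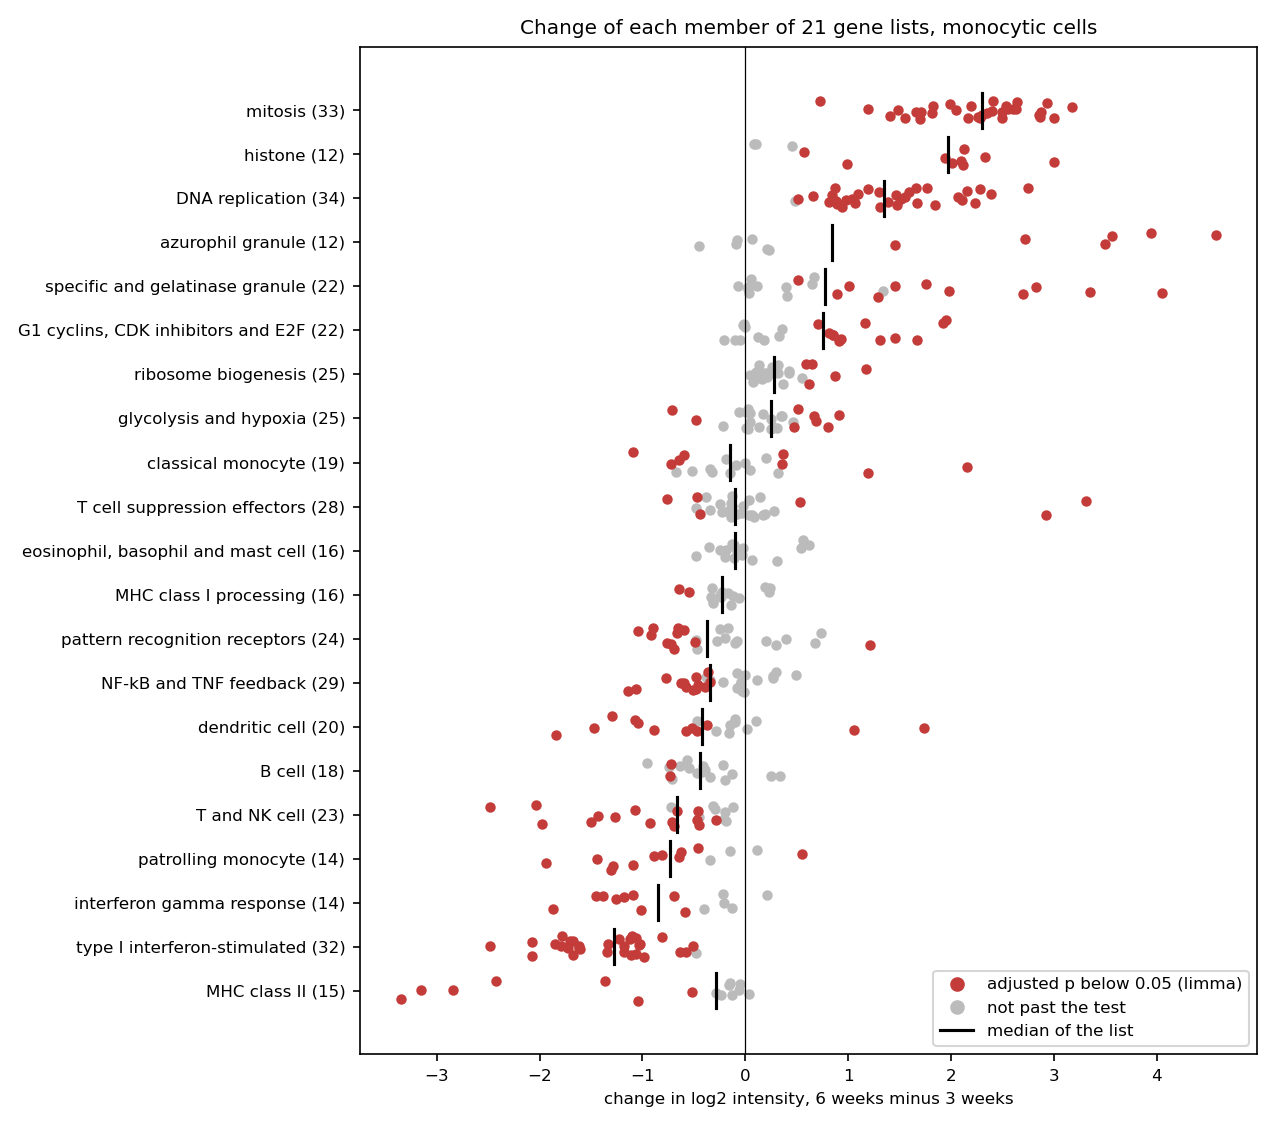
Change from 3 to 6 weeks on the log2 scale (x axis) of every measured member of 21 gene lists (y axis); red points passed at an adjusted p below 0.05 and the black tick is the list's median. The mitosis list has all 33 members to the right of 0 and the type I interferon list all 32 to the left, with medians of 2.30 and -1.28.

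Most markers of patrolling monocytes fell, and those of classical monocytes moved in both directions. Cx3cr1, the fractalkine receptor, was at 10.6, 10.7 and 10.8 and then at 10, 9.0 and 9.24 (change -1.31, SE 0.18, adjusted p = 9.86e-05). Ace, angiotensin-converting enzyme, was at 11.1, 11.03 and 10.9 and then at 10.6, 8.05 and 8.59, so the first 6-week array barely moved and the others fell by more than 2 log2 units (change -1.94). Adgre4 fell by 1.44, Eno3 by 1.29, Treml4 by 1.09 and the integrin Itgal by 0.89. In total, 10 of 14 measured genes fell and 1, the Fc receptor Fcgr4, rose by 0.55 (median -0.73). That count was 6 without the second 3-week, without the second 6-week, or without both doubted arrays, 9 without the first 3-week array, 5 with the 9 monocytic arrays alone and 1 with the 6 arrays alone. The call of Treml4 was lost without the second or the third array of either time, that of Fcgr4 without the second or the third 3-week or the first or second 6-week array, and that of Adgre4 without both doubted arrays.

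Among 19 classical monocyte genes, 10 had all 6-week arrays below the 3-week arrays and 5 above (6.8% and 6.47% of all genes). The median change was -0.15. By the test 4 of 19 rose and 4 fell. These counts were 2 and 4 without the first 3-week array, 2 and 2 without the second, 3 and 1 without the third, 2 and 1 without the second 6-week array, 2 and 0 without the third, and 1 and 1 without both doubted arrays. Vcan, the proteoglycan versican, rose furthest: 8.51, 9.76 and 9.31 at 3 weeks, then 11.3, 11.4 and 11.4 at 6 weeks (4.48-fold, adjusted p = 5.33e-06). It was at 6.15 to 6.77 in naive mice, so even the 3-week array that lay among the naive arrays was above them for this gene. Ccr1, a chemokine receptor, rose by 1.19, from 7.32, 8.16 and 8.46 to 8.82, 9.72 and 8.97. Csf1r fell by 0.64, the scavenger receptor Cd36 by 1.09 and Adgre1, an adhesion receptor of macrophages, by 0.72; the calls of all 3 were lost without the second or the third 6-week array, and those of Cd36 and Adgre1 also without the second or the third 3-week array. Of 22 genes of macrophage maturation, Mertk, a receptor for dying cells, rose by 1.59, and Spic, a factor of red pulp macrophages, fell by 1.57 (6.81, 7.47 and 7.85, then 6.1, 5.52 and 5.79). The calls of Mertk and Spic were lost with values raised to the receptor level. Siglec1 (CD169), also a marker of macrophages, changed by -0.74. In this list 3 rose without the first 6-week array and 2 without the third.

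Markers of other cells moved as well. In the T and NK cell list 15 of 23 measured genes fell and none rose (median -0.66), 14 without the first 3-week array and 12 without the second 6-week array. Gzma, the protease granzyme A, went from 7.61, 8.46 and 8.56 to 6.11, 5.54 and 5.52, which is below the receptor level of 6.77 (change -2.48, adjusted p = 2.92e-06, and -1.44 with values raised to that level). Ccl5, a chemokine of T and NK cells and of activated myeloid cells, went from 9.1, 9.46 and 9.61 to 7.88, 7.23 and 7.1 (change -1.98), and the T cell receptor subunit Cd3g fell by 2.03. Summed intensity of the list was 3386.8 to 4512.7 at 3 weeks and 2034.7 to 2401.0 at 6 weeks, and 13 of its genes at 3 weeks and 7 at 6 weeks lay above the receptor level. Raised to that level, 5 genes fell, Gzma and Ccl5 among them, and Cd3g did not (adjusted p = 0.108). How much of the fall in interferon gamma targets goes with these lymphocyte genes was not tested.

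Dendritic cell genes fell in part: 10 of 20 fell and 2, Flt3 and Cd24a, rose, with a median of -0.42. Cd24a (1.06) is named after its value was seen. Dpp4, the peptidase CD26, read 8.89, 9.16 and 9.3 and then 7.69, 7.15 and 6.99 (3.58-fold lower, adjusted p = 8.85e-07). Kmo, an enzyme of the kynurenine path, fell by 1.30, the integrin Itgax (CD11c) by 1.47 and the lectin Cd209a by 1.04. Xcr1 and Clec9a, genes of a subset of conventional dendritic cells, and Zbtb46 were named after their values were seen and changed by -0.10, -0.10 and 0.02. By group mean 12 of the 20 genes lay above the receptor level at 3 weeks and 11 at 6 weeks. Dendritic cells also carry class II, and the list's summed intensity was 3995.5, 4566.4 and 4632.0 at 3 weeks and 4138.6, 4395.3 and 3259.9 at 6 weeks, which overlap; their part in the fall of class II was not tested. Erythroid genes followed single arrays: Tfrc, the transferrin receptor, was the only gene of 14 to rise (1.59), its 2 groups overlapped, and its call was lost without the third 3-week or the second 6-week array. In this list 9 of the 14 rose without the third 6-week array and 0 without the second. Their sum was 2379.3, 3892.9 and 1892.7 at 3 weeks and 4825.9, 7369.0 and 1761.5 at 6 weeks. Stromal (16), epithelial and carcinoma (15) and eosinophil, basophil and mast cell genes (16) had none past the test. In the last list 1 rose without the first 3-week or the third 6-week array, and 3 rose and 1 fell without the first 6-week array. Most genes of these lists were at background: by group mean 7 stromal and 2 epithelial genes lay above the receptor level at each time. In the last list 4 did at 3 weeks and 5 at 6 weeks.

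Inflammatory mediators fell at a moderate size. In the list of NF-kB targets and TNF feedback genes 13 of 29 fell and none rose (median -0.34); 7 fell without the second 3-week, the third 3-week or the second 6-week array. Il1b, interleukin-1 beta, was at 9.05, 9.42 and 9.23 and then at 8.29, 7.75 and 8.23 (2.2-fold lower, adjusted p = 2.39e-05), and Cd40, the receptor through which T cells license antigen-presenting cells, at 8.44, 8.56 and 8.66 and then at 7.73, 7.39 and 7.37 (2.08-fold lower). The groups were apart in both. The inhibitor Nfkbie fell by 0.77, the subunit Nfkb2 by 0.62 and Nfkbiz by 0.60. Of 20 interleukin-1 and inflammasome genes 4 fell and 1, Il1r2, rose; 7 fell without the first 3-week array, and 2 rose without the first 6-week array. Il18 fell by 1.05 and Casp4, the caspase that senses bacterial lipopolysaccharide in the cytosol, by 0.86 (8.32, 8.78 and 8.84, then 7.78, 7.64 and 7.93). The call of Il18 was lost with values raised to the receptor level. Of 24 pattern recognition receptors 10 fell and 1 rose (median -0.37); 6 fell without the third 3-week or the third 6-week array, and 2 rose without the second 3-week and 3 without the first 6-week array. Tlr9, which senses unmethylated DNA, went from 8.76, 8.96 and 9.18 to 8.1, 8.06 and 8.01 (change -0.92), and Nod1, a sensor of peptidoglycan, from 8.21, 8.44 and 8.45 to 7.81, 7.37 and 7.23 (change -0.90). Clec5a, an activating lectin of myeloid cells, was the gene that rose (1.21). Of the immediate early genes, which handling of cells can raise, 4 of 19 fell and none rose (2 fell without the second 3-week or the third 6-week array), with Atf3 at 9.74, 9.65 and 9.15 and then 8.84, 8.6 and 7.87 (change -1.08) and Btg2 down by 0.88. The call of Atf3 was lost without the first 3-week, the second 3-week or the third 6-week array, and the part of handling in these falls was not tested.

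More receptors and adhesion molecules fell than rose. Of 25 growth factor and cytokine receptors 8 fell and 2, Il1r2 and Flt3, rose; 4 fell without the third 6-week array. Il10ra, through which interleukin-10 calms macrophages, was at 10.2, 10.3 and 10.2 and then at 9.51, 8.97 and 8.98 (change -1.06, adjusted p = 0.000345). Tnfrsf1b, the larger TNF receptor, fell by 0.64. In the JAK-STAT list Stat2, Stat4 (-0.75), Bcl6 (-0.77) and Jak1 (-0.43) fell and none of 19 rose (6 fell without the first 3-week array). With values raised to the receptor level the change of Stat4 was 0 and its call was lost. Stat3, often tied to suppressor cell expansion, changed by -0.23 (adjusted p = 0.233). Among integrins and adhesion molecules 6 of 22 fell (9 without the first 3-week array), with Itgb3 at 8.24, 8.04 and 8.03 and then 7.55, 7.39 and 7.04 (change -0.78), its partner Itgav at -0.73 and Itga4, which binds VCAM-1, at -0.61. Chemoattractant receptors split, 4 of 16 up and 4 down: the complement receptor C5ar1 rose by 0.61, and the nucleotide receptor P2ry6 fell by 0.81 and S1pr1, the receptor for sphingosine phosphate that guides cells out of tissue, by 0.55. Without a single array other than the first 6-week array, 2 or 3 of these rose and 2 or 3 fell, and the call of S1pr1 was lost without the first or the third 3-week or the second or the third 6-week array. In the checkpoint list 4 of 21 fell (8 without the first 3-week array, 2 without the second 3-week, the third 3-week or the third 6-week array), led by Cd40 and Cd244a (-1.04). Cd274, PD-L1, was at 8.18, 8.29 and 8.41 and then at 8.05, 7.44 and 7.97 (change -0.48, adjusted p = 0.0545, and 0.0234 with the block).

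Arg1, Nos2 and Cybb, which serve the best known suppressive mechanisms, did not pass the test. Of 28 measured effectors 3 rose and 3 fell (median -0.10), where 4.38% of all genes rose and 3.13% fell. Without the first 6-week array 4 rose and 5 fell, without the first 3-week array 3 and 4, and without any other single array 2 or 3 rose and 1 fell. Arg1, arginase, was at 6.01, 5.93 and 5.68 and then at 5.98, 6.1 and 5.95, below the receptor level on all 6 arrays, and changed by 0.14 (SE 0.10, adjusted p = 0.548). Nos2, inducible nitric oxide synthase, was at 7.0, 6.31 and 6.56 and then at 6.64, 6.61 and 6.55, so the 2 groups overlapped and the values were near that level (change -0.02, SE 0.14). Cybb, the catalytic subunit of the phagocyte oxidase, was high throughout, at 13.3 ± 0.04 and 13.1 ± 0.04 (SD, n = 3; change -0.24, adjusted p = 0.42). Arg2 changed by 0.19 and Il4ra, the interleukin-4 receptor chain, by 0.07, and prostaglandin synthase Ptgs2 by -0.38 (adjusted p = 0.249). The effectors that rose were S100a8, S100a9 and the arginine transporter Slc7a1 (0.53). Those that fell were the ectonucleotidase Entpd1, CD39 (-0.76), the galectin Lgals9 (-0.47) and Tgfb1 (-0.44); the calls of Lgals9 and Tgfb1 were lost without the second or the third array of either time, and that of Slc7a1 without the first or second 3-week or the second or the third 6-week array.

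Some genes of metabolism and stress responses rose, in shares that varied between the lists (4.38% of all genes rose). In the list of the unfolded protein and amino acid response 6 of 26 rose and 1, Atf3, fell: Asns, asparagine synthetase, was at 7.43, 7.72 and 7.42 and then at 8.4, 8.99 and 8.77 (change 1.19, adjusted p = 1.37e-05), the serine pathway enzymes Shmt2 and Psat1 rose by 1.35 and 1.00, and the leucine transporter Slc7a5 by 0.98. In the glycolysis and hypoxia list, with 25 members measured, 6 rose and 2 fell (9 rose with the block, 3 without the third 6-week array, 10 without the first, 2 without both doubted arrays). Pgam1 rose by 0.80 and the oxidoreductase Ero1a by 0.91, and Pfkfb3, which makes the activator of phosphofructokinase, fell by 0.71 with groups at 8.3 to 8.38 and 7.55 to 7.71. Ribosome biogenesis genes rose in 5 of 25 (11 with the block, 12 without the first 6-week array, 2 without the first 3-week array and 1 without the second or the third 6-week array), led by Nop58 (1.17). Of 29 respiratory chain genes 1 rose, Ndufv1 (6 with the block or without the first 6-week array, 2 without the third 3-week array), and of 22 ribosomal protein genes 1, Rps2 (2 with the block or without the first 6-week array), both shares near that of all genes. The calls of Ndufv1 and Rps2 were lost without the first or the third 3-week or the second or the third 6-week array, and that of Rps2 also without the second 3-week array. Of 21 oxidase and antioxidant genes 4 rose (7 with the block, 8 without the first 6-week array, 2 without the first 3-week, the second 6-week or the third 6-week array): Gpx3, secreted glutathione peroxidase, was at 6.83, 7.49 and 7.53 and then at 8.61, 8.94 and 8.75 (change 1.49, adjusted p = 2.45e-06) and Gclm, of glutathione synthesis, rose by 1.42. Lysosomal cathepsins L and D rose by 0.80 and 0.72. In the lipid list 3 of 25 rose and 3 fell, among them Dgat2, which makes triglycerides (0.99), and Pltp, which transfers phospholipids (-0.88). Of these 25, 6 fell without the first 3-week or the first 6-week array and 1 without any other single array.

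The remaining lists are given by their counts. Of 16 S100 and annexin genes 4 rose, against 4.38% of all genes: S100a8 and S100a9, given above, Anxa3 (1.04) and S100a1 (0.63), and Anxa4 fell by 0.51 (2 fell without the first 3-week or the first 6-week array). Of 11 Fc receptors the high-affinity receptor Fcgr1 fell by 0.78 and Fcgr4 rose. Of 19 genes of cholesterol synthesis Sc5d (0.57) and Hsd17b7 (0.44) rose, and none rose after centring or without the second 3-week, the second 6-week or the third 6-week array; 1 rose without the first or the third 3-week array and 5 without the first 6-week array. Of 15 genes of apoptosis the survival factor Mcl1 fell by 0.44 (3 fell without the first 6-week array), and of 9 plasma cell genes 2 fell, among them Prdm1 (-0.68). The call of S100a1 was lost without the first 3-week, the second 6-week or the third 6-week array, that of Anxa4 without the second or the third array of either time, and that of Mcl1 without the third 6-week array.

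The granulocytic fraction offered a test of whether these changes were shared. In those cells 4726 genes (23.7%) rose and 6968 (34.9%) fell from 3 to 6 weeks, with 2 arrays a group. The difference between the 2 changes passed for 5818 genes (29.2%), with the monocytic change above the granulocytic for 2373 (11.9%) and below it for 3445 (17.3%); after centring each array on its median these were 519 (2.6%) and 3977 (19.9%), and after quantile normalization over all arrays 2320 (11.6%) and 2809 (14.1%). Pairs of arrays of 1 subset shared more exact values (a median of 942.5 among monocytic and 251 among granulocytic arrays) than pairs across subsets (146), so the subsets may have been normalized apart, and counts of differences below are also given after centring and after quantile normalization. Leaving out a granulocytic array leaves 1 in its group, which the fit assumes to vary like the other groups. Azurophil genes rose further in monocytic cells: Mpo rose by 1.71 in granulocytic cells (difference 2.87, adjusted p = 0.000121), and Ctsg changed by 0.56 there (difference 3.39). All 6 azurophil genes that rose differed in this way, and the count was 6 after centring and 7 after quantile normalization. Specific granule genes rose in 21 of 22 in granulocytic cells (median 1.68), and by the test of the difference the monocytic change lay above for 3 and below for 8. The 8 stayed 8 after centring and became 5 after quantile normalization, 13 with the replicate block and 14 without the second monocytic 6-week array. S100a9 rose by 0.74 in granulocytic cells (difference 2.57).

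Mitosis genes rose in both subsets. Of 33 genes 32 rose in granulocytic cells, by a median of 1.86, and the change differed for 3 (0 after centring, 6 after quantile normalization over all arrays, 8 with the replicate block, 17 without the first monocytic 6-week array, 5 without the first monocytic 3-week array and 1 without the second granulocytic 6-week array). For replication genes 17 of 34 rose there (median 0.50), and 19 differed in favour of monocytic cells, 4 after centring and 12 after quantile normalization. That count was 10 without either granulocytic 3-week array and 6 without the second granulocytic 6-week array. The interferon genes parted: of the type I list 5 rose and 5 fell in granulocytic cells (median -0.07), and for 25 of 32 the monocytic change lay below (28 after centring, 19 after quantile normalization). Stat2 rose by 0.59 in granulocytic cells and fell in monocytic cells (difference -1.65, adjusted p = 3.43e-06). Casp4, Pfkfb3, Itgb3 and Itgav also rose in granulocytic cells (1.24, 1.20, 0.53 and 0.53) and fell in monocytic cells, with differences of -2.10, -1.91, -1.31 and -1.26. Myc moved the other way round, -0.61 against 1.17 (difference 1.78). Falls of other lists were seen in granulocytic cells too, where 34.9% of all genes fell. Of 15 MHC class II genes 6 fell there and 1 rose (median -0.52). In the T and NK cell, B cell and dendritic cell lists 16 of 23, 17 of 18 and 12 of 20 fell there, and 1, 1 and 3 rose. For MHC class II the difference passed for 5 of 15 genes, with the monocytic change below. It was below for 6 after centring, 1 after quantile normalization, 3 without the second or the third monocytic 3-week or the first granulocytic 6-week array, 2 without the second granulocytic 6-week array and 0 without the second granulocytic 3-week array, so it depended on the scaling and on single arrays. Each of the single differences named here passed under every scaling and without any single array.

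**Figure D4:**
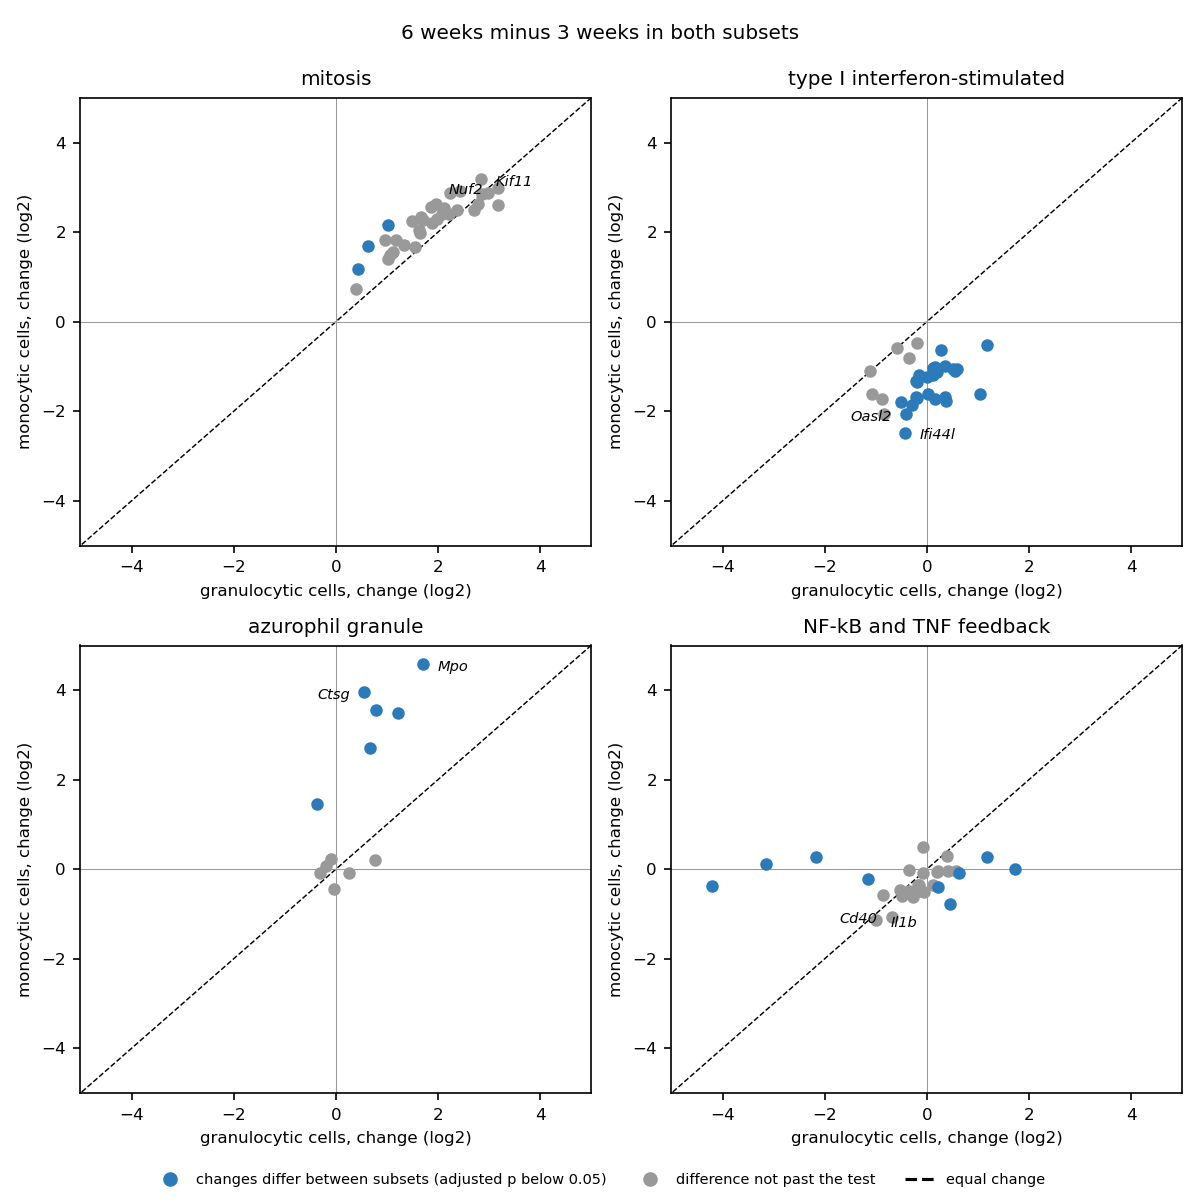
Change from 3 to 6 weeks in monocytic cells (y axis, log2) against the change in granulocytic cells (x axis, log2) for genes of 4 lists. Blue points are genes whose changes differ at an adjusted p below 0.05, and the diagonal marks equal change. Mitosis genes lie near the diagonal (medians 2.30 and 1.86), and type I interferon genes lie at negative monocytic change around a granulocytic median of -0.07.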

How the data were processed

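The authors deposited linear intensities of 35557 features; the submitters' processing notes name RMA, which subtracts background, quantile normalizes and summarises probes, and its version and settings are not given in the sources used here. Depth has no meaning for arrays, and their number, 3 a group, limits the precision. Values were put on the log2 scale, the 21789 features with a single gene symbol were kept (1621 had several symbols and 12147 none), and the brightest feature stood for each of 19938 genes. Limma 3.58.1 in R 4.3.3 fitted a mean per group over all 17 arrays, with Benjamini-Hochberg adjustment over all genes; the code was tested on simulated data. Same-numbered 3- and 6-week arrays deviated together (correlations 0.63, 0.28 and 0.47 for numbers 1, 2 and 3, though the second 3-week array reached 0.32 with the third 6-week array), so the number was also used as a block. No pair of arrays was identical. Named genes were the 15 largest rises and falls with groups apart, up to 5 per list by size of change, 24 genes of interest and the largest differences between subsets. The rankings over all genes took genes past the test. They skipped predicted genes, small RNA genes, olfactory and vomeronasal receptors and antigen receptor segments. The arrays compared, the lists and the tests were chosen with earlier results of these data known. Promoter sequences are RefSeq's (GRCm38.p6). Alternatives covered scaling, a floor at the receptor level, array weights, the fitted arrays, the block, the pseudocount (16), the feature rule, the prior and each array left out; leaving out both doubted arrays was added after the data were seen.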

Additional observations from a re-analysis of the deposited data

Results flagged for a closer look

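The change from 3 to 6 weeks differed between monocytic and granulocytic cells, by the interaction term of the limma fit, for 5818 of 19938 genes, 108 of the 195 named genes among them. The largest differences toward monocytic cells were those of Ptgs2 (3.83), Ctsg (3.39), Cxcl2 (3.26), Saa3 (3.23) and Mpo (2.87). In Ptgs2, the inducible prostaglandin synthase, and Cxcl2, a chemokine for neutrophils, the difference came with granulocytic changes of -4.21 and -3.15 and monocytic changes of -0.38 and 0.11. Saa3, an acute phase protein, rose by 3.12 in monocytic cells and changed by -0.11 in granulocytic cells. The largest differences the other way were those of Serpinb10 (-4.23), Stfa3 (-4.04), Tmem45a2 (-3.24), Aldh2 (-3.03) and Stfa2 (-3.02). Stfa3 and Stfa2, stefins of neutrophils that are near copies of each other and so uncertain, were raised on the second 6-week array only among monocytic arrays (8.26 and 6.49, against 5.13 and 5.31, and 4.62 and 4.55). Serpinb10 and Aldh2 rose in granulocytic cells by 3.50 and 2.65 and did not pass in monocytic cells (adjusted p = 0.0569 and 0.0673, and 0.0324 and 0.0315 with the replicate block). Each of these 10 single differences kept its sign and its call under every alternative run.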

How the results depend on the processing

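Of 165 named genes past the test, 77 kept their call under every alternative, 88 lost it under at least 1, and none changed sign. Of the 30 that did not pass, 18 passed with the same sign under at least 1 alternative and 12 changed sign. Nos2, one of those 12, also passed where its sign had turned (lowest adjusted p = 0.00287, limma). The count of 1497 genes past the test became 877 with the 9 monocytic arrays alone and 428 with the 6 arrays alone, fits with fewer arrays to estimate the spread, and 77 and 34 named genes lost their calls with the 6 and the 9 arrays. It became 7809 with array weights, whose estimation did not converge and gave the second 3-week array a weight of 50.8. With the replicate number as a block it was 2534, and the block ended no call. Leaving out 1 array each gave 1000 to 2803 genes past the test, 357 to 598 of them at least 2-fold, and 3641 to 9334 genes whose change differed between the subsets. That last count was 11682 with array weights and 9009 without both doubted arrays, and 8280 with the replicate block. The fits with 9 and 6 arrays also left out all granulocytic arrays, so the number of arrays and the cells fitted cannot be told apart. The cause of these moves was not tested.

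All 12 genes that changed sign stayed within a change of 0.3 where they did so. Without both doubted arrays Krt8 changed by 0.20, Arg2 by -0.07, Nos2 by 0.16, Il4ra by -0.05, Cebpa by -0.01 and Stfa2 by -0.18. With array weights Arg2 changed by -0.02, Nos2 by 0.29, Il4ra by -0.00 and Tmem45a2 by 0.00, with quantile normalization over all arrays Il4ra by -0.02, and with the floor Krt18 by -0.03. With each array left out in turn Krt18 ran from -0.06 to 0.38, Krt8 from -0.39 to 0.12, Nos2 from -0.18 to 0.17, Il4ra from -0.01 to 0.12, Itgam from -0.11 to 0.06, Spi1 from -0.19 to 0.12, Cebpb from -0.16 to 0.04, Tmem45a2 from -0.17 to 0.03, Stfa2 from -0.17 to 0.80 and Cxcl2 from -0.01 to 0.35. Once values below the receptor level were raised to it 34 named calls were lost, and 17 of those genes lay above that level on all 6 arrays.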

Other observations

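The genes and families in this part were chosen after their values were seen and carry no test of the choice. Fkbp5, a co-chaperone of the steroid receptors and a target of glucocorticoids, was at 7.57, 7.65 and 7.81 on the 3-week arrays and at 10.1, 10.8 and 10.6 on the 6-week arrays (change 2.83, SE 0.15, adjusted p = 1.33e-08, limma). The metallothionein Mt1 rose by 1.79 and Klf9 by 0.86, while Tsc22d3, Per1 and Sgk1, which glucocorticoids also induce in many cells, changed by -0.31, 0.05 and -0.71.

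All 8 measured guanylate-binding proteins fell (median -1.14), as did 6 of 10 genes of the p200 family, 5 of 9 Schlafen genes, 5 of 8 Gimap GTPases and 5 of 11 Parp genes, and none of these families had a gene that rose. All 8 measured kappa variable segments of immunoglobulin rose, by 0.75 to 2.56, although 2 of 18 B cell markers fell; the segments are near copies of each other, so their single values are uncertain. Of the serum amyloid genes Saa3 rose by 3.12 and the liver forms Saa1 and Saa2 changed by -0.30 and -0.20.

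Of 18 condensin and cohesin genes 10 rose and none fell, and of 11 Fanconi genes 5 rose. Among features with several gene symbols 97 rose and 31 fell of 1621 (7.9%), among those with no symbol 156 and 92 of 12147 (2.04%), and of 291 microRNA hairpins 1 rose and 2 fell.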
